A study of Homo sapiens with 18 samples.

Results

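The microRNAs miR-34a-5p, miR-34b-5p, miR-34c-5p, miR-192-5p, miR-194-5p and miR-215-5p were followed in HCT116 cells grown to increasing density. These 6 mature miRNAs were chosen by name, as the miR-34 family and the group of miR-192, miR-194 and miR-215 that are both known to be linked to p53, and they were 6 of the 2167 mature miRNAs in the small RNA tables, where they are listed as HSA-MIR-34A-5P, HSA-MIR-34B-5P, HSA-MIR-34C-5P, HSA-MIR-192-5P, HSA-MIR-194-5P and HSA-MIR-215-5P. HCT116 is a human colorectal carcinoma cell line with epithelial features. All libraries came from wild-type cells, kept in McCoy's 5A medium with fetal bovine serum and given no other agent, so that time in culture and density changed together and cannot be told apart. Cells were taken on day 3 at 50% confluency, on day 5 at 250% and on day 7, which the labels give as 400%, with 3 small RNA libraries and 3 whole transcriptome libraries per day labelled as biological replicates. The whole transcriptome analysed here covers day 3 and day 5 (6 libraries), and small-RNA-seq covers all 3 days (9 libraries).

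The p53 protein is a transcription factor that halts the cell cycle or starts cell death under stress. It is known to raise the miR-34 genes directly, and miR-34 in turn represses mRNAs for cyclins, cyclin-dependent kinases, MYC, MET, Notch signaling proteins and survival factors. miR-192 and miR-215 are near-identical miRNAs of gut and kidney epithelium known to repress cell cycle mRNAs, and miR-194 is made from the same clusters. Hepatocyte nuclear factors drive these clusters in the intestine and liver. A miRNA guides Argonaute mainly through its seed, bases 2 to 8, which pairs with matching stretches in the 3′ untranslated region (3′UTR) of an mRNA.

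Mature sequences from RefSeq (GRCh38.p14), matched by name for 5 of the 6 miRNAs, are shown with the seed in capitals because the seed decides which of these miRNAs can pair with the same sites.
miR-34a-5p: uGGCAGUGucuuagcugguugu
miR-34b-5p: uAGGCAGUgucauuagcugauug
miR-192-5p: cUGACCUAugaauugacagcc
miR-215-5p: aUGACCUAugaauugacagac
miR-194-5p: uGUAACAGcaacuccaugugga
miR-192-5p and miR-215-5p are both 21 bases long and have the same seed. Counted from 1 at the 5′ end, and with miR-192-5p given first, they differ by C1A and C20A, so that short reads of the pair can be hard to assign. The miR-34b-5p seed is that of miR-34a-5p moved by 1 base. miR-194-5p has a seed of its own.

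The hairpins lie at 4 places in the genome (GRCh38.p14). The miR-34a hairpin is at chr1:9151668-9151777 on the minus strand, inside the long noncoding host gene MIR34AHG, and falls within an exon of 1 of its 5 annotated transcripts. miR-34b (chr11:111512938-111513021, plus strand) and miR-34c (chr11:111513439-111513515) are 417 bases apart in the noncoding gene MIR34BHG, opposite an intron of BTG4. miR-215 (chr1:220117853-220117962, minus strand) and miR-194-1 (chr1:220118157-220118241) are neighbours, opposite an intron of IARS2. miR-192 (chr11:64891137-64891246, minus strand) and miR-194-2 (chr11:64891355-64891439) are 108 bases apart inside the noncoding gene MIR194-2HG. The mature miR-194-5p of both loci is the same molecule, so its value cannot be divided between the miR-215 and the miR-192 cluster.

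The deposited small RNA values are normalized log2 values, on a scale whose transformation is not named in the sources used here, and the read depth behind them cannot be read from the tables. Summed after back-transformation, the libraries held 1542090 to 1947370 on day 3, 1712220 to 1884030 on day 5 and 2452610 to 2600750 on day 7, so day 7 stood above both other days over all miRNAs, and day 3 replicate 3 had the lowest sum. Recovered whole transcriptome reads ranged from 27470978 to 56689369 per library. Of 10 epithelial and colon markers, EPCAM, CDH1, KRT8, KRT18 and KRT19 were well expressed, while the colon genes VIL1, CDX1 and LGR5 had at most 6 reads in any library. The leukocyte gene PTPRC and the macrophage gene CD68 had at most 5 reads. Other listed markers of other cell types had reads in every library. COL1A1 had 341 to 1099 reads, VIM 233 to 505, ACTA2 53 to 154 and COL1A2 9 to 23. In bulk RNA, fewer cells expressing a gene and less of it per cell cannot be told apart.

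The 6 miRNAs covered a wide range of levels. miR-192-5p was the most abundant, ranking 105 of 2167 by its mean log2 value over the 9 libraries, followed by miR-34a-5p at rank 164 and miR-194-5p at rank 236. miR-34c-5p and miR-215-5p ranked 505 and 513 and did not differ from each other beyond the spread between replicates on any day. miR-34b-5p ranked 1324.

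miR-34a-5p, the main p53-responsive member of its family, had log2 values of 8.40, 8.56 and 8.10 on day 3, 8.53, 8.71 and 8.68 on day 5, and 9.35, 9.31 and 9.28 on day 7. Every day 7 library was above every earlier one, and days 3 and 5 overlapped. The difference of day 7 from day 3 was 0.96 on the log2 scale (SE 0.13, n = 3 per day, limma adjusted p = 0.000672), a 1.95-fold higher value.

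miR-34c-5p had log2 values of 3.73, 3.98 and 3.26 on day 3, 3.58, 3.65 and 3.30 on day 5, and 3.91, 3.77 and 4.17 on day 7. Its day 7 and day 3 values overlapped, and the difference of 0.29 (SE 0.19) had a limma adjusted p of 0.226. miR-34b-5p stayed between -1.80 and -0.79 in the 9 libraries and was below the minimum for testing. All 3 day 5 libraries were at -1.80 and 2 of the day 7 libraries at -1.78 and -1.76, next to the lowest value it had, and no order of the days was read from it.

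miR-192-5p had log2 values of 10.36, 10.42 and 9.91 on day 3, 10.45, 10.62 and 10.52 on day 5, and 10.89, 10.89 and 10.83 on day 7. Each day lay above the one before it with no overlap, and day 7 was 0.64 above day 3 (SE 0.15, limma adjusted p = 0.00709). miR-194-5p had log2 values of 6.80, 7.06 and 6.51 on day 3, 6.93, 6.96 and 6.98 on day 5, and 7.58, 7.55 and 7.66 on day 7. Here days 3 and 5 overlapped and day 7 was 0.81 above day 3 (SE 0.15, limma adjusted p = 0.00227).

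miR-215-5p, the low-abundance seed partner of miR-192-5p, had log2 values of 3.11, 3.88 and 3.06 on day 3, 3.49, 3.55 and 3.24 on day 5, and 4.11, 4.04 and 3.80 on day 7. The day 3 replicate 2 value was above the lowest day 7 value, so the days overlapped. The difference of 0.63 (SE 0.22) passed the test at a limma adjusted p of 0.0372. It no longer passed without day 3 replicate 1 (adjusted p = 0.0909), day 3 replicate 3 (0.140), day 7 replicate 1 (0.0890) or day 7 replicate 2 (0.0959). miR-215-5p reached the testing minimum of 10 in 3 day 7 libraries and 1 day 3 library. It was thus tested against day 3 only because of the day on which it was high.

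**Figure D1:**
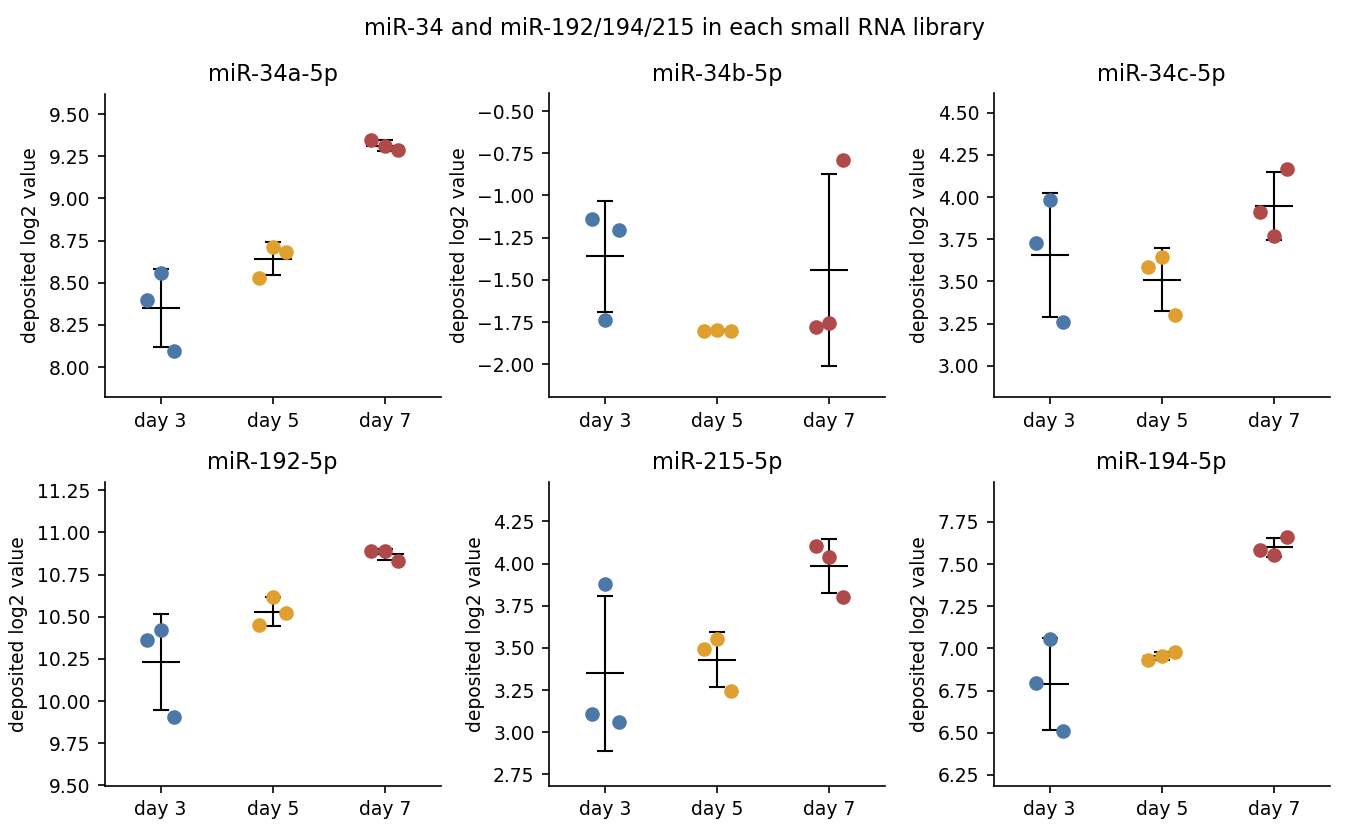
Deposited log2 value (y axis) of each of the 6 miRNAs in the 9 small RNA libraries by day (x axis). Points are libraries, the horizontal line is the mean of the day and the bars are 1 SD. Every panel spans the same log2 range. Day 7 lies above the other days for miR-34a-5p, miR-192-5p and miR-194-5p, and miR-34b-5p stays between -1.80 and -0.79.

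Between day 7 and day 3, 4 of the 5 tested miRNAs of the group were called higher and none was called lower, with miR-34c-5p not called. Of these 4, miR-215-5p entered the test only through day 7, where it was high, so its call is no support. miR-34c-5p reached the testing minimum in 2 day 3 libraries and 3 day 7 libraries. Over all 559 miRNAs tested, 45.3% were called higher and the median log2 difference was 0.30, so that most miRNAs of the libraries were higher on day 7. Relative to that median, miR-34a-5p was 0.66 higher, miR-194-5p 0.51, and miR-192-5p and miR-215-5p 0.33 each, while miR-34c-5p was at -0.01. By the size of its difference, miR-34a-5p ranked 48 of 559, miR-194-5p 82, miR-192-5p 139, miR-215-5p 142 and miR-34c-5p 292.

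These differences depended on what the libraries were scaled to. On the deposited scale 84.3% of the 300 calls were higher on day 7, whereas after scaling each library to the total over all mature miRNAs 29.2% of 319 calls were, and the median moved to -0.20. miR-34a-5p was still higher on day 7 by 0.46 (adjusted p = 0.00258) and miR-194-5p by 0.31 (adjusted p = 0.0241). miR-192-5p, at 0.14 (adjusted p = 0.161), and miR-215-5p, at 0.13 (adjusted p = 0.567), no longer passed, and miR-34c-5p turned to -0.21 (adjusted p = 0.260). With libraries centered on the median of well-expressed miRNAs, miR-34a-5p, miR-192-5p and miR-194-5p passed and miR-215-5p did not (adjusted p = 0.0877).

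Between day 5 and day 3, none of the 5 tested miRNAs was called by limma, against 14.8% of all 539 miRNAs tested in either direction, and none had an unadjusted p under 0.05. miR-34a-5p was 0.29 higher (SE 0.14, adjusted p = 0.202) and miR-192-5p 0.30 higher (SE 0.15, adjusted p = 0.225), the latter with no overlap between days. miR-194-5p was at 0.17, miR-215-5p at 0.08 and miR-34c-5p at -0.15. Day 3 was the most variable day, with an SD of 0.23 for miR-34a-5p and 0.28 for miR-192-5p, and its replicate 3 was the lowest library for both. Without that library miR-34a-5p was at 0.16, miR-192-5p at 0.14 and miR-194-5p at 0.0297, none of them called. After scaling to library totals the spread narrowed, and miR-34a-5p, at 0.28 (adjusted p = 0.0257), and miR-192-5p, at 0.29 (adjusted p = 0.0305), both passed. Median centering gave the same 2 calls (adjusted p = 0.0346 and 0.0296).

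The contrast of day 7 with day 5 tests whether the change from day 3 was different at the later density. All 5 tested miRNAs were higher on day 7 than on day 5 in every library. miR-34a-5p, 0.67 higher (SE 0.12, adjusted p = 0.00199), and miR-194-5p, 0.64 higher (SE 0.13, adjusted p = 0.00330), were called, where 39.3% of all 567 miRNAs tested were called higher. miR-192-5p (0.34, adjusted p = 0.0594), miR-215-5p (0.55, adjusted p = 0.0501) and miR-34c-5p (0.44, adjusted p = 0.0756) fell short of the threshold. This fit took its spread from all 9 libraries, including the variable day 3. In a fit of the 6 libraries of days 5 and 7 alone, these 3 passed as well, at adjusted p = 0.00550, 0.00657 and 0.0294. Without day 3 replicate 3 they passed too, at 0.00271, 0.0418 and 0.0263, as did miR-192-5p without day 3 replicate 2 (0.0495) and miR-215-5p without day 3 replicate 1 (0.0451) or 2 (0.00579). On library totals, miR-34a-5p alone passed, by 0.18 (adjusted p = 0.0359), and miR-192-5p turned to -0.15 (adjusted p = 0.0689). With median centering miR-34a-5p and miR-194-5p passed, and miR-192-5p, miR-215-5p and miR-34c-5p did not (adjusted p = 0.137, 0.173 and 0.233). Nor did these 3 pass with no filter on low values (0.222, 0.246 and 0.310), while miR-192-5p passed with a minimum of 100 (0.0269).

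**Figure D2:**
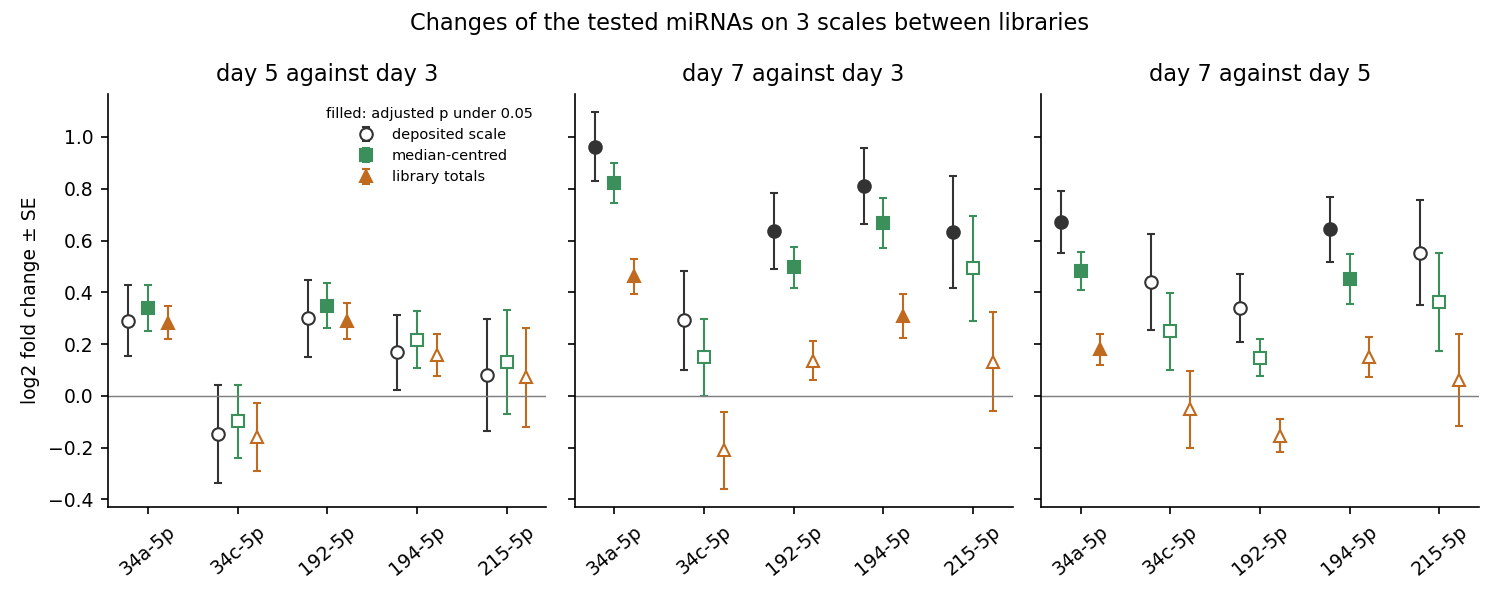
Log2 fold change with its SE (y axis) of the 5 tested miRNAs (x axis) in the 3 comparisons of days, on the deposited scale, after median centering and after scaling to library totals. Filled symbols have a limma adjusted p under 0.05. miR-34a-5p is above 0 on all 3 scales in each comparison. miR-34c-5p is below 0 on library totals in each comparison, and on all 3 scales between day 5 and day 3.

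A share of the library does not depend on a scale factor between libraries, and is given here as CPM, the back-transformed value divided by the library's mature miRNA total and multiplied by 1000000. Because the transformation of the deposited values is not named, these are shares of back-transformed values and may differ from shares of reads. miR-34a-5p was at 180.5, 193.5 and 177.7 CPM on day 3, 215.7, 222.2 and 232.5 on day 5, and 265.3, 244.0 and 250.1 on day 7. Its share was higher on each later day with no overlap. miR-192-5p was at 706.6, 704.9 and 623.0 CPM on day 3, 817.0, 835.2 and 831.6 on day 5, and 772.4, 729.4 and 730.9 on day 7, so its share was largest on day 5, with day 7 between day 5 and day 3 and no overlap. miR-194-5p had 62.4 ± 5.19 CPM on day 3, 69.5 ± 3.13 on day 5 and 77.2 ± 4.60 on day 7 (SD, n = 3), with day 7 above both other days. Together the 6 miRNAs were 0.0938% ± 0.00583 of the total on day 3, 0.113% ± 0.00145 on day 5 and 0.109% ± 0.00375 on day 7.

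**Figure D3:**
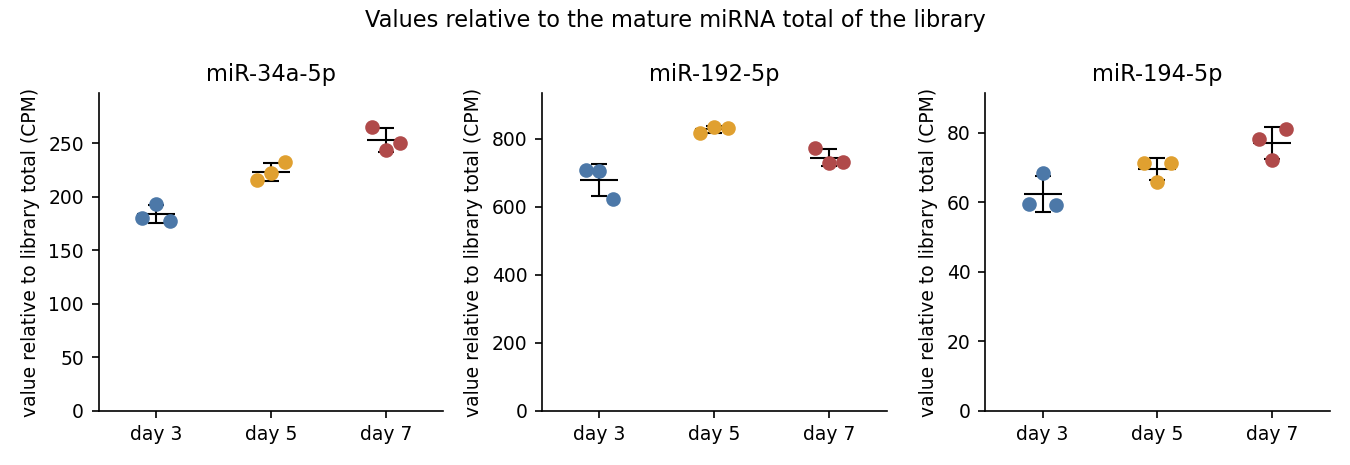
Back-transformed value relative to the library's mature miRNA total, in CPM (y axis, from 0), for the 3 most abundant miRNAs of the group, by day (x axis). Points are libraries, lines are means and bars are 1 SD. miR-34a-5p increases from a mean of 184 to 253 CPM between days 3 and 7, while miR-192-5p is highest on day 5.

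Within the group, miR-192-5p accounted for 72.3%, 73.0% and 68.5% of the summed values on days 3, 5 and 7, and miR-34a-5p for 19.6%, 19.7% and 23.3%. The log2 ratio of miR-34a-5p to miR-192-5p was -1.97, -1.87 and -1.81 on day 3 and -1.92, -1.91 and -1.84 on day 5. On day 7 it was -1.54, -1.58 and -1.55, above all 6 earlier libraries by a mean of 0.33 on either comparison. Every difference between days of 3 libraries each was tested by a two-sided exact permutation test, which cannot give p under 0.1 here. Both of these differences had an exact permutation p of 0.1, or 0.3 after adjustment over 15 tests of 5 ratios.

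The log2 ratio of miR-192-5p to miR-194-5p, which share a cluster on chromosome 11, was 3.44 ± 0.11 on day 3, 3.58 ± 0.08 on day 5 and 3.27 ± 0.09 on day 7 (SD, n = 3). Day 7 was below both other days without overlap, by 0.17 and 0.30 (exact permutation p = 0.1 each, adjusted p = 0.3). That of miR-215-5p to miR-194-5p, the pair of chromosome 1, overlapped between all days, with means of -3.44, -3.53 and -3.61. miR-34a-5p to miR-194-5p was 1.56 ± 0.05 on day 3 and 1.71 ± 0.08 on day 7 without overlap (exact permutation p = 0.1, adjusted p = 0.3), and day 5 overlapped with day 7.

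miR-34a-3p, the opposite arm of the miR-34a hairpin, is usually discarded when the duplex is loaded. It was at 5.63 ± 0.09 on day 3, 5.81 ± 0.13 on day 5 and 5.90 ± 0.09 on day 7. On the deposited scale it was not called in any comparison (day 7 against day 3, 0.27, limma adjusted p = 0.0644). A fit of all 9 libraries instead of 6 called that difference (adjusted p = 0.0412). On library totals it was called lower on day 7, at -0.24 against day 3 (adjusted p = 0.0407) and -0.40 against day 5 (adjusted p = 0.00515). The 5p arm exceeded the 3p arm by 2.70, 2.88 and 2.57 on day 3, by 2.84, 2.91 and 2.75 on day 5, and by 3.55, 3.38 and 3.31 on day 7. The day 7 difference was thus above that of the other days in every library, a comparison made after the values were seen and left untested. The other 5 opposite arms listed were below the testing minimum.

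**Figure D4:**
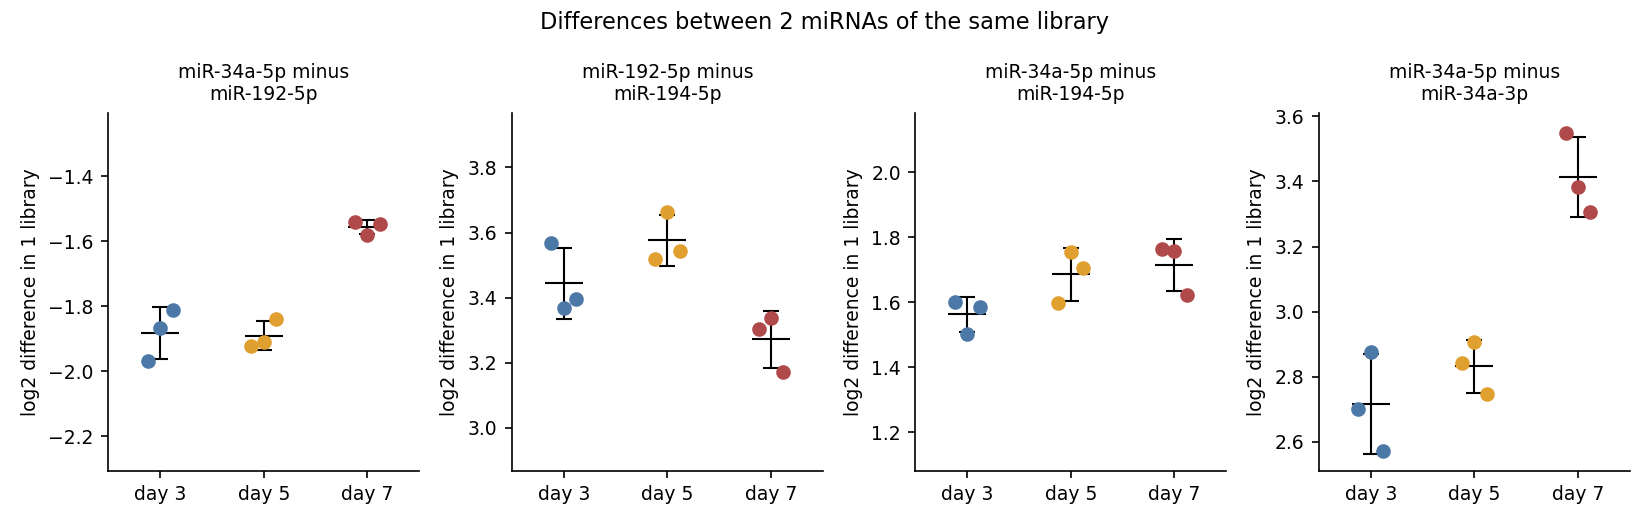
Log2 difference between 2 miRNAs of the same library (y axis) by day (x axis), for 3 pairs of mature miRNAs and for the arms of the miR-34a hairpin. Points are libraries, lines are means and bars are 1 SD, and every panel spans the same log2 range. Day 7 stands apart from the other days in the first, second and last panels.

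Over the 9 libraries, the log2 values of miR-34a-5p and miR-194-5p had a Pearson r of 0.98, and still 0.91 as shares of the library, whereas miR-34a-5p and miR-192-5p had 0.96 and 0.57. These are descriptions across libraries that share days and scale, and the median r of miR-34a-5p with 454 other well-expressed miRNAs was 0.77 on the deposited scale. On that scale the miRNAs most like miR-34a-5p were let-7a-5p (r = 0.993), miR-28-3p (0.991) and let-7g-5p (0.990). For miR-192-5p they were miR-98-5p (0.987), miR-548ay-5p (0.986) and miR-3158-5p (0.982), and for miR-194-5p miR-31-5p, miR-203a-3p and let-7g-5p (0.986, 0.986 and 0.985). miR-215-5p was most like miR-101-5p (0.960), miR-339-3p (0.939) and miR-766-3p (0.905), and miR-34c-5p most like miR-590-3p (0.926), miR-181c-3p (0.902) and miR-196b-5p (0.888). Likeness depended on the scale. As shares of the library, miR-34a-5p had a median r of -0.44 with the other miRNAs and was most like miR-210-3p (0.964), miR-30b-5p (0.963) and miR-28-5p (0.959).

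The miR-449 miRNAs of chromosome 5 belong to the wider miR-34 family, and their seeds show the link.
miR-449a: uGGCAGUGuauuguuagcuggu
miR-449b-5p: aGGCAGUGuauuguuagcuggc
miR-449c-5p: uAGGCAGUguauugcuagcggcugu
miR-449a and miR-449b-5p carry the miR-34a-5p seed and miR-449c-5p that of miR-34b-5p. miR-449b-5p was higher on day 7 than on day 3 by 0.52 (adjusted p = 0.0185) and than on day 5 by 0.90 (adjusted p = 0.00268). It reached the testing minimum of 10 in 3 day 7 libraries, 1 day 3 library and no day 5 library, so it was tested only because of the day on which it was high. miR-449c-5p was higher by 0.33 (adjusted p = 0.0410) and 0.40 (adjusted p = 0.0125). miR-449a was at -0.18 and 0.06 in these comparisons and was not called. The day 7 against day 3 call of miR-449b-5p was lost without day 3 replicate 2 or 3 or day 7 replicate 2 or 3 (adjusted p from 0.0532 to 0.0722), and that of miR-449c-5p without day 3 replicate 1 or any day 7 library (0.0652 to 0.147). Median centering ended both calls (adjusted p = 0.0731 and 0.0572), as did no filter on low values (0.125 and 0.111), and a replicate block ended that of miR-449c-5p (0.0516). Against day 5, miR-449c-5p lost its call without day 5 replicate 3 (0.0555) or day 7 replicate 2 (0.0534), and with median centering (0.130). On library totals miR-449b-5p was at 0.0181 against day 3 (adjusted p = 0.928) and 0.41 against day 5 (adjusted p = 0.114) and was not called. On that scale miR-449a was called lower on day 7 than on day 3, by -0.68 (adjusted p = 0.00449), and than on day 5, by -0.43 (adjusted p = 0.0110). There miR-449c-5p was called lower on day 7 than on day 3 by -0.17 (adjusted p = 0.0370), so the direction of miR-449c-5p depended on the scale.

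Of 10 other miRNAs known to be linked to p53, 9 were tested between day 7 and day 3, where 5 were called higher and miR-1246 lower (-0.97, adjusted p = 0.0341). Over all miRNAs 45.3% were called higher and 8.41% lower. The miR-200 family members miR-141-3p (0.89, adjusted p = 0.000350) and miR-200c-3p (0.78, adjusted p = 0.00129), which maintain epithelial identity, had the largest differences of these 5, and were also higher on library totals (adjusted p = 0.00386 and 0.00728). miR-107, miR-15a-5p and miR-22-3p were 0.49, 0.36 and 0.37 higher, but at -0.01, -0.14 and -0.14 on library totals. The 3 not called were miR-143-3p (0.54, adjusted p = 0.0695), miR-145-5p (0.36, adjusted p = 0.0737) and miR-16-5p (0.23, adjusted p = 0.146). miR-143-3p passed with a minimum of 100 (0.0401), in a fit of all 9 libraries (0.0437) and without day 3 replicate 1, 2 or 3 (0.0330, 0.0431 and 0.0493). miR-145-5p passed with a minimum of 100 (0.0406), in a fit of all 9 libraries (0.0407) and without day 3 replicate 2 (0.0267). On library totals miR-145-5p turned to -0.14 and miR-16-5p to -0.27, where miR-16-5p was called lower (adjusted p = 0.0119). Leaving out 1 library ended the calls of miR-15a-5p (without any day 7 library, adjusted p up to 0.0798), miR-22-3p (without day 7 replicate 2, 0.0672) and miR-1246 (without day 7 replicate 2 or 3, 0.0903 and 0.0878). Without day 3 replicate 3 miR-1246 was at -0.56. Median centering ended the calls of miR-1246 (adjusted p = 0.0738) and miR-22-3p (0.124), and no filter on low values those of miR-1246 (0.267) and miR-15a-5p (0.0742). None of the 9 was called between day 5 and day 3 by limma, at an unadjusted p over 0.05 in each. In that comparison 14.8% of all miRNAs were called in either direction. Between day 7 and day 5, miR-107, miR-141-3p, miR-15a-5p and miR-200c-3p were called higher and miR-1246 lower. Of all miRNAs, 39.3% were called higher and 4.94% lower between these days. With no filter miR-1246 lost that call (adjusted p = 0.106). On library totals miR-16-5p (-0.21, adjusted p = 0.0124), miR-145-5p (-0.19, adjusted p = 0.0367) and miR-22-3p (-0.28, adjusted p = 0.0245) were called lower.

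The RNAs around these loci were compared between day 5 and day 3, the days whose whole transcriptome is analysed here, when none of the mature miRNAs was called on the deposited scale. Over 20129 genes tested, limma called 29.3% higher and 27.6% lower on day 5. MIR34AHG (ENSG00000228526), the miR-34a host RNA, had normalized values of 29.0, 32.1 and 31.2 on day 3 and 36.9, 48.2 and 53.8 on day 5, from 22 to 52 reads per library. All day 5 values were above all day 3 values, and the log2 fold change was 0.56 (SE 0.15, adjusted p = 0.0206). With so few reads this call was lost in edgeR (adjusted p = 0.0533), in DESeq2 (0.149) and without day 3 replicate 1 (0.0627), day 5 replicate 2 (0.0648) or day 5 replicate 3 (0.0542).

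MIR194-2HG (ENSG00000229719), which contains miR-192 and miR-194-2, had no read in the 3 day 3 libraries and 1, 2 and 4 reads on day 5, too few for a test. ATG2A, the autophagy gene next to that locus, was at 379, 406 and 387 on day 3 and 893, 974 and 867 on day 5, a log2 fold change of 1.22 (SE 0.08, adjusted p = 0.000222). IARS2, the mitochondrial isoleucyl-tRNA synthetase gene opposite miR-215 and miR-194-1, was at 0.23 (SE 0.11, adjusted p = 0.128). It passed in edgeR (adjusted p = 0.0206), in DESeq2 (0.0383) and without day 3 replicate 3 (0.0331). BTG4 had at most 2 reads. The hairpin genes themselves, and MIR34BHG, were not among the genes with whole transcriptome values used here and could not be compared.

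Of the transcription factors and regulators listed, TP73, a relative of p53, was 1.00 higher on day 5 on the log2 scale (adjusted p = 0.00121). HNF4A, the hepatocyte nuclear factor of gut epithelium, had 173.0, 173.1 and 207.0 on day 3 and 387.2, 449.1 and 388.3 on day 5, a log2 fold change of 1.14 (SE 0.11, adjusted p = 0.000497). The intestinal factor CDX2 was 0.44 higher (adjusted p = 0.00889). MDM2 and MDM4, the inhibitors of p53, were at 0.02 (adjusted p = 0.856) and 0.13 (adjusted p = 0.191). TP63, another relative, had at most 8 reads in any library.

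mRNAs of 25 known p53 target genes were mixed in direction. Of the 24 tested, 9 were called higher, 7 lower and 8 were not called, with a median log2 fold change of 0.22 against 0.01 over all genes. Limma called 29.3% of all tested genes higher and 27.6% lower. Those include noncoding genes. Of the 13049 tested genes with an annotated 3′UTR, 37.8% were called higher and 28.1% lower, with a median of 0.12. The shares of the p53 list were close to these. GDF15, a stress cytokine, had 572, 705 and 795 on day 3 and 2976, 3168 and 3169 on day 5, a log2 fold change of 2.18 (SE 0.13, adjusted p = 0.000191). BBC3, which encodes the death-promoting protein PUMA, was 1.16 higher (adjusted p = 0.000842). TIGAR, a regulator of sugar metabolism, fell by 1.59 (adjusted p = 0.000535) and TRIAP1, a survival factor, by 1.35 (adjusted p = 0.000211).

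Known targets of miR-34 were more often higher than lower on day 5. Of the 19 tested, 11 were called higher, 3 lower and 5 were not called, with a median log2 fold change of 0.47. The shares over all tested genes were 29.3% higher and 27.6% lower, and over those with an annotated 3′UTR 37.8% and 28.1%. NOTCH1, the Notch receptor, had 831, 1037 and 903 on day 3 and 2905, 2689 and 3075 on day 5, a log2 fold change of 1.65 (SE 0.11, adjusted p = 0.000222). The receptor kinase AXL was 1.25 higher (adjusted p = 0.000224) and CCND1, cyclin D1, 1.23 higher (adjusted p = 0.000946). CCNE2, cyclin E2, fell by 1.50 (adjusted p = 0.000189). CDK6 was at 0.24 (adjusted p = 0.0544) and passed in edgeR (adjusted p = 0.0117) and DESeq2 (0.00690).

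Known targets of miR-192 and miR-215 had the opposite balance. Of the 16 tested, 3 were called higher, 9 lower and 4 were not called, with a median of -0.45. All tested genes were called higher in 29.3% of cases and lower in 27.6%, and those with an annotated 3′UTR in 37.8% and 28.1%. MAD2L1, a spindle checkpoint gene, had 8392, 7980 and 8412 on day 3 and 3484, 3311 and 3763 on day 5, so it fell by 1.23 (SE 0.08, adjusted p = 0.000222). The replication kinase CDC7 fell by 1.00 (adjusted p = 0.000384). ZEB2, a repressor of epithelial genes, fell by 1.53 (adjusted p = 0.0117) from a low level of at most 27 reads. IGF1R, the receptor of insulin-like growth factor 1, had 509, 529 and 527 on day 3 and 1760, 1902 and 1836 on day 5 and was 1.81 higher (SE 0.07, adjusted p = 0.000117).

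IGF1R is also a known target of miR-194, whose list leaned upward. Of the 11 tested, 9 were called higher, SOCS2 lower, and the Polycomb gene BMI1 was not called, with a median of 0.71. Among all tested genes 29.3% were called higher and 27.6% lower, and among those with an annotated 3′UTR 37.8% and 28.1%. KDM5B, a histone demethylase, had 990, 1076 and 1087 on day 3 and 3627, 3887 and 3956 on day 5, a log2 fold change of 1.86 (SE 0.08, adjusted p = 0.000135). The acetyltransferase EP300 was 1.06 higher (adjusted p = 0.000224) and the growth factor HBEGF 0.83 higher (adjusted p = 0.00694). BMI1, at -0.58 (adjusted p = 0.0540), passed as lower in edgeR (adjusted p = 0.000982) and without day 3 replicate 3 (0.00434). Epithelial mRNAs moved between the same days, with 5 of 7 tested markers called higher. Of all tested genes 29.3% were called higher, and of those with an annotated 3′UTR 37.8%. CDH1 was higher by 2.63 and KRT19 by 1.98, while EPCAM was at 0.00219 (SE 0.07, adjusted p = 0.982). KRT20, a keratin of differentiated colon epithelium named after its values were seen, was at -0.67 (SE 0.25, adjusted p = 0.0613), with every day 5 value below every day 3 value and 13 to 44 reads per library. It passed as lower without day 5 replicate 3 (adjusted p = 0.0214). Of 7 markers of other cell types, 4 were tested, COL1A1 (1.12) and ACTA2 (1.23) were called higher, and VIM was at -0.10 (adjusted p = 0.608). The part of these markers in the balance of these lists was not tested.

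**Figure D5:**
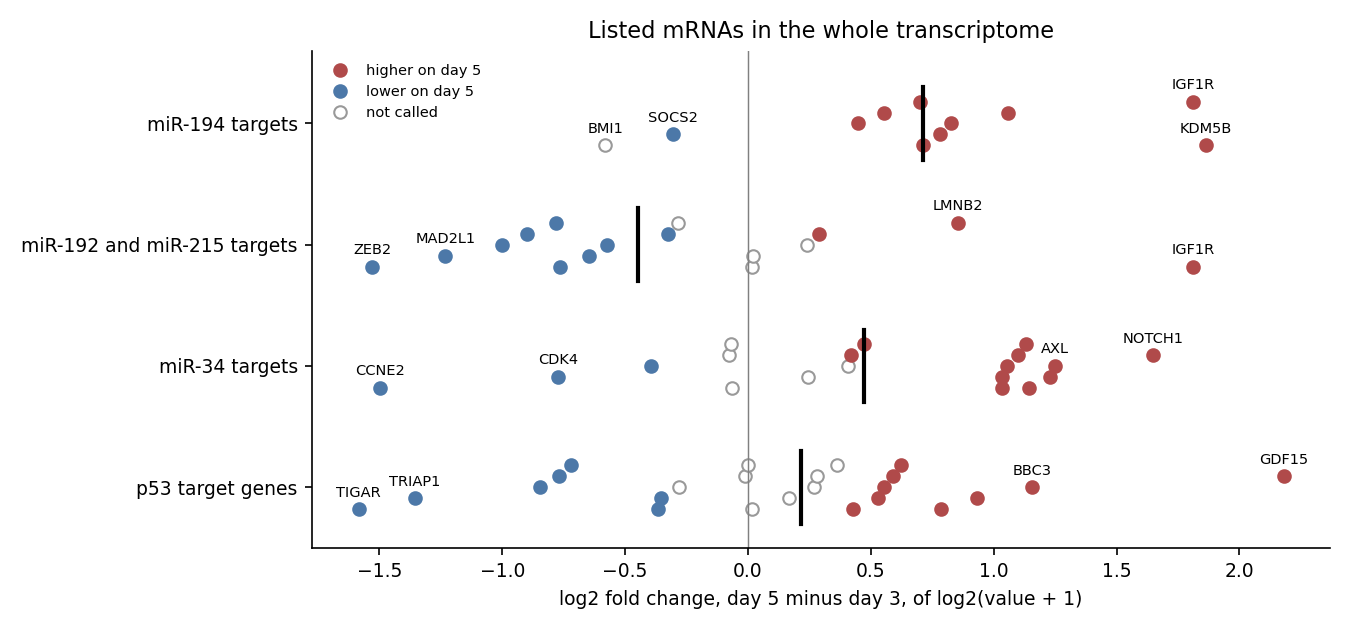
Log2 fold change between day 5 and day 3 (x axis) of each tested mRNA in 4 lists of genes (y axis), from limma on log2(value + 1). Filled red points were called higher on day 5, filled blue points lower, and open points were not called. Vertical bars are list medians, at 0.22, 0.47, -0.45 and 0.71 from bottom to top. The extreme genes of each list are named, and points are spread vertically to keep them apart.

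The sites that could pair with these seeds were looked for in the annotated 3′UTRs (GENCODE 44, the canonical transcript of each gene, sense strand). For the miR-34a-5p seed the letters CACTGCC were searched, for miR-192-5p and miR-215-5p TAGGTCA, and for miR-194-5p CTGTTAC. Of the listed targets in the table, 12 of 20 held a miR-34a match, 10 of 16 a match for miR-192 and miR-215 and 9 of 12 a miR-194 match. One site each is shown for the called genes of these lists that are named above and hold a match, with the match in capitals, because the genes with sites moved in both directions.
NOTCH1 site for miR-34a-5p: ttttctggggaaagaCACTGCCt
AXL site for miR-34a-5p: aggatccaagctaagCACTGCCa
HNF4A site for miR-34a-5p: ttctcatgttgaagcCACTGCCt
CCNE2 site for miR-34a-5p: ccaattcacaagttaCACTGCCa
CDC7 site for miR-192-5p and miR-215-5p: tattttgagcattgaTAGGTCAg
ZEB2 site for miR-192-5p and miR-215-5p: gcattcatttaatttTAGGTCAa
KDM5B site for miR-194-5p: tctcccttgtttactCTGTTACc
IGF1R site for miR-194-5p: tcacagcattggagcCTGTTACa
HBEGF site for miR-194-5p: ggtgccatttctgaaCTGTTACa
SOCS2 site for miR-194-5p: agtgtttatttactgCTGTTACt
These matches start at base 909 of the 3′UTR for NOTCH1, 44 for AXL, 254 for HNF4A, 123 for CCNE2, 1185 for CDC7, 956 for ZEB2, 440 for KDM5B, 1608 for IGF1R, 1381 for HBEGF and 976 for SOCS2. NOTCH1, CDC7, IGF1R and HBEGF held 2 matches each and HNF4A 3, of which 1 is shown, and the other genes shown held 1 each. NOTCH1, AXL, HNF4A, KDM5B, IGF1R and HBEGF were higher on day 5 and CCNE2, CDC7, ZEB2 and SOCS2 lower. CCND1, MAD2L1 and EP300 held no match for their listed miRNA in these 3′UTRs. IGF1R, also listed for miR-192 and miR-215, held no TAGGTCA match. Among listed miR-34 targets with a match, 7 were called higher, 1 lower and 3 not called, and among those without one 4, 2 and 2. For miR-192 and miR-215 these counts were 1, 5 and 4 with a match and 2, 4 and 0 without. For miR-194 they were 7, 1 and 1 with a match and 2, 0 and 0 without. Of all tested genes with an annotated 3′UTR, 37.8% were called higher and 28.1% lower.

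Across all 13049 tested genes with an annotated 3′UTR, 37.8% were higher and 28.1% lower on day 5. A miR-34a match was present in 17.4% of them, and of these genes 51.0% were higher and 17.0% lower, with a median log2 fold change of 0.37, compared with 35.0%, 30.4% and 0.06 for genes without a match. Genes with 2 or more matches were higher in 60.8% of cases. For the ACTGCCT match of the miR-34b-5p seed, which shares 6 letters with CACTGCC and was in 15.7% of genes, 45.8% of genes with a match were higher. Genes with a TAGGTCA match (7.20%) were higher in 35.3% and lower in 30.7%, and genes with a CTGTTAC match (11.5%) in 35.4% and 29.8%. 3′UTRs with a match were longer in each case, with medians of 2503 bases for CACTGCC, 3646.5 for TAGGTCA and 3225 for CTGTTAC, against 1286 over all genes. Their GC content was 47.6% for CACTGCC, 39.6% for TAGGTCA and 38.8% for CTGTTAC, against 42.7% over all genes. The part of length and base composition in these shares was not tested, genes are not independent replicates, and a match of letters does not show binding.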

How the data were processed

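Small-RNA-seq (9 libraries) and whole transcriptome RNAseq of days 3 and 5 (6 libraries) were analysed. The authors aligned trimmed small RNA reads with GRCh37 miRNAs (mature and hairpin) and deposited normalized log2 values for 2167 mature miRNAs, in 2 tables with the same values. Their methods name TMM and edgeR, and give trimmed read lengths that start above those of the 6 miRNAs. The effect of this on the values was not tested. The deposited whole transcriptome signal per gene (38055 genes, hg38, strand-specific, TMM) was in whole multiples of 1 read in each library (100% of values, tolerance 0.01), from 27470978 to 56689369 reads. Intervals of depth are not given for small RNA because the reads counted per library are not given in the sources used here. Columns with the authors' own fold changes and p-values were not used, and whole transcriptome day 7 was not analysed here.

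limma 3.58.1 (R 4.3.3) was fitted to the log2 values, and to log2(value + 1) for the whole transcriptome, over features reaching a value of 10 in 3 or more of the fitted libraries, with Benjamini-Hochberg adjustment over all features and a threshold of 0.05. Day 7 against day 5 used all 9 libraries. Fold changes of log2(value + 1) understate changes of low genes. For ratios a two-sided exact permutation test was used (scipy 1.17.1). Scripts were tested on simulated data. Symbols were missing for 13081 genes, of which 10653 were named by ID from GENCODE 44. Named genes were all 6 miRNAs, their opposite arms, relatives and regulators, and at most the 4 largest called members and 1 uncalled member of each other list. Some listed regulators are not reported here. The miRNAs and lists were chosen with earlier results of these data known. Alternatives were library totals, median centering, other filters and pseudocounts, each library left out, a replicate block, edgeR 4.0.16 and DESeq2 1.42.0 on recovered reads. Python 3.11.15, pandas 2.3.3, numpy 2.4.6 and matplotlib 3.10.9 were used.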

Additional observations from a re-analysis of the deposited data

Results flagged for a closer look

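By the limma contrast of day 7 with day 5, the change from day 3 differed for 2 of the 5 tested miRNAs. In the same contrast 39.3% of all 567 miRNAs tested were called higher. miR-34a-5p was higher on day 7 than on day 5 by 0.67 (adjusted p = 0.00199) and miR-194-5p by 0.64 (adjusted p = 0.00330), each in 3 of 3 libraries. Among the miR-34 relatives the same contrast was 0.90 for miR-449b-5p (adjusted p = 0.00268), which reached the testing minimum in no day 5 library, and 0.40 for miR-449c-5p (adjusted p = 0.0125). Among other p53-linked miRNAs it was 0.46 for miR-107 (adjusted p = 0.00528), 0.90 for miR-141-3p (adjusted p = 0.000173), 0.39 for miR-15a-5p (adjusted p = 0.00960), 0.68 for miR-200c-3p (adjusted p = 0.00158) and -1.16 for miR-1246 (adjusted p = 0.0121). Of these 9, miR-34a-5p, miR-141-3p, miR-200c-3p and miR-1246 also passed on library totals.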

How the results depend on the processing

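Scaling between libraries decided most: the text gives each of the 5 tested miRNAs on library totals for day 7 against day 3. Between day 7 and day 5, miR-194-5p was at 0.15 on library totals (limma adjusted p = 0.131) and lost its call. miR-215-5p was at 0.06 there (limma adjusted p = 0.784). With that scaling the contrast of day 7 with day 3 turned for miR-34c-5p (-0.21), miR-34a-3p (-0.24), miR-449c-5p (-0.17), miR-107 (-0.0124), miR-15a-5p (-0.14), miR-16-5p (-0.27), miR-145-5p (-0.14) and miR-22-3p (-0.14). The contrast of day 7 with day 5 turned for miR-34c-5p (-0.0529), miR-192-5p (-0.15), miR-34a-3p (-0.40), miR-449a (-0.43), miR-449c-5p (-0.0930), miR-107 (-0.0370), miR-15a-5p (-0.10), miR-16-5p (-0.21), miR-145-5p (-0.19) and miR-22-3p (-0.28). Median centering turned it for miR-34a-3p (-0.10) and miR-449a (-0.13). The number of miRNAs called between day 5 and day 3 was 80, and 135 on library totals, 124 with median centering, 50 with no filter, 52 with a minimum of 100, and 37 to 122 without 1 library, highest without day 3 replicate 3. Without 1 library, 229 to 301 miRNAs were called between day 7 and day 3 (300 with all libraries), 181 to 319 between day 7 and day 5 (251 with all libraries), and 9811 to 11380 genes between day 5 and day 3 (11450 with all libraries). A minimum of 100 called 187 between day 7 and day 3, and no filter 164 between day 7 and day 5, with fewer or more miRNAs tested.

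Without 1 library, uncalled values near 0 changed sign. The range was -0.35 to 0.0144 for miR-34c-5p and -0.0640 to 0.34 for miR-215-5p between day 5 and day 3, -0.34 to 0.00285 for miR-449a between day 7 and day 3. Between day 5 and day 3 it was -0.00899 to 0.0517 for MDM2, -0.0276 to 0.0210 for EPCAM and -0.23 to 0.0464 for VIM, and EPCAM was at -0.00905 in edgeR. The log2 ratio of miR-215-5p to miR-194-5p ranged from -0.21 to 0.0430 (day 5 against day 3) and from -0.19 to 0.0316 (day 7 against day 5), miR-192-5p to miR-215-5p from -0.16 to 0.19 (day 7 against day 3), miR-34a-5p to miR-194-5p from -0.0153 to 0.0749 (day 7 against day 5) and miR-34a-5p to miR-192-5p from -0.0522 to 0.0271 (day 5 against day 3). Where no value shows it, the cause was not tested.

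Replicate numbers are shared by the days, but same-numbered small RNA libraries deviated together only weakly (r from -0.08 to 0.12), so the numbers were not taken as pairs. With a replicate block 302, 71 and 254 miRNAs were called for day 7 against day 3, day 5 against day 3 and day 7 against day 5, and 10533 genes. Among the 6 miRNAs the block changed 1 call, miR-215-5p between day 7 and day 5 (adjusted p = 0.0237). It ended the call of miR-449c-5p between day 7 and day 3 (0.0516), and called miR-143-3p (0.0262) and miR-145-5p (0.0429) between day 7 and day 3, miR-16-5p between day 7 and day 5 (0.0421) and KRT20 (0.0154), and changed no other call of the miRNAs and genes compared here. Each small RNA library of days 3 and 5 correlated best with its own number, which did not hold in all cases for the other pairs of days or for the whole transcriptome.

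With no filter on low values miR-192-5p (adjusted p = 0.0716) and miR-215-5p (0.251) were no longer called between day 7 and day 3. The reads counted in each small RNA library are not given in the sources used here, so counting error of miR-215-5p, miR-34c-5p and miR-34b-5p could not be given.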
